A study of Homo sapiens with 14 samples.

Results

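Coding sequences of K562 messenger RNAs were read by codon position and by encoded amino acid in 4 transcriptome-wide profiles of chemical probing, icSHAPE and icLASER, each in vivo and in vitro. They were those of protein-coding transcripts whose length equals GENCODE and whose start and stop codons are both annotated, with 1 transcript kept for each gene, that of highest mean RPKM (reads scaled to transcript length and library size). Of 20512 transcripts in any profile, 15325 matched in length, 4448 of these were coding with both codons, and they came from 2201 genes. After the 15 nucleotides at each end were left out, 2049171 coding nucleotides remained. The median coding sequence had 237 sense codons, with a range from 14 to 2817. The number of genes with scored coding nucleotides was 1732 for icSHAPE in vivo, 1349 for icSHAPE in vitro, 1862 for icLASER in vivo and 1823 for icLASER in vitro.

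A coding sequence is read in codons of 3 nucleotides, and the 3 positions of a codon are under different constraints. The second position does most to set the chemical class of the amino acid, the first position also mostly changes the amino acid, and the third can often change without altering the protein. Base composition therefore repeats with the codon, and chemical probing of messenger RNA has been used to ask whether RNA structure repeats with it as well. In icSHAPE the reagent NAI-N3 acylates the 2′-hydroxyl of flexible nucleotides, and in icLASER the light-activated reagent NAz-N3 attacks C8 of solvent-exposed purines. A higher score means that reverse transcription stopped more often at modified RNA than in the control.

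All samples came from K562, an established human leukemia line with erythroid features, without any genetic change between groups. The 14 libraries were 3 icSHAPE in vivo, 2 icSHAPE in vitro and 3 DMSO controls, with 2 icLASER in vivo, 2 icLASER in vitro and, for icLASER, 2 further controls. The titles of these controls say no UV, whereas their treatment protocol names DMSO, so whether they held the reagent is uncertain, and with it what an icLASER score is measured against. By the labels, NAI-N3 was used at 100 mM for 5 min, and NAz-N3 came from a 1 M stock with 10 min of UV. In vivo means that living cells were treated, and in vitro that extracted RNA was folded and then treated. The authors pooled replicates and controls into 4 profiles, 1 for each reagent and condition, so each value below is a single one. Without replicates no p-value can be given. The SDs and quartiles quoted describe the spread between genes, which are not replicates, and the read depth behind a score is unknown. In bulk RNA, a change in every cell and a change in some cells cannot be told apart. Of 12 erythroid markers, 11 were found, with HBG1, a fetal globin, at 1936 mean RPKM in its highest transcript and GATA1, an erythroid transcription factor, at 86.6. ALAS2, the erythroid heme synthesis enzyme, was at 2.24 and the factor TAL1 was absent from every profile. Of 7 markers of other blood cells, 6 were absent, CD3E of T cells and CD14 of monocytes among them, and LYZ was at 19.8.

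Short stretches show what is being averaged. For 3 of the genes of highest mean RPKM with at least 300 coding nucleotides scored in every profile, the first in-frame window of 30 bases in 1 exon with no missing score is given, 5′ to 3′ as DNA letters from GENCODE on GRCh38, with the first position of each codon in capitals.
MT-CO2: CaaGtaGgtCtaCaaGacGctActTccCct
MT-ATP6: TtcGctTcaTtcAttGccCccAcaAtcCta
RPL32: CccCttGtgAagCccAagAtcGtcAaaAag
Each window covers codons 6 to 15. They lie at chrM:7601-7630 on the plus strand in the only exon of MT-CO2, a cytochrome oxidase subunit, and at chrM:8542-8571 on the plus strand in the only exon of MT-ATP6, an ATP synthase subunit that overlaps MT-ATP8 here. The RPL32 window lies at chr3:12840193-12840222 on the minus strand in exon 2 of 4 of this ribosomal protein gene.

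In the RPL32 window the 10 first positions, shown in capitals, averaged 0.176 for icSHAPE in vivo, the second 0.057 and the third 0.132, whereas icLASER in vivo was highest at the third position, at 0.149, 0.0629 and 0.184. The MT-CO2 window did not follow this order for icSHAPE in vivo, with 0.139, 0.0969 and 0.146 and zeros at 17 of 30 bases. MT-ATP6 was high at the first position for icSHAPE in vivo, at 0.419 against 0.147 and 0.334. In all 3 windows and both reagents in vivo, the second position was lower than the first.

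Over all members, the first codon position had the highest mean score and the second the lowest in every profile. For icSHAPE in vivo the means were 0.230 at the first position, 0.167 at the second and 0.186 at the third, over 1431769 nucleotides. The icSHAPE in vitro means were lower throughout, at 0.186, 0.147 and 0.157. For icLASER in vivo they were 0.183, 0.127 and 0.162, and for icLASER in vitro 0.2002, 0.138 and 0.175. The first position thus exceeded the second by 0.0629, 0.0389, 0.0564 and 0.0626 in that order. The third position minus the mean of the first and second, the contrast first planned, was small and differed in sign between reagents, at -0.0121 and -0.0100 for icSHAPE and 0.00685 and 0.00650 for icLASER. The third position lay between the others in every profile, and the first minus second contrast used below was chosen after these values were seen. Which nucleotide a score is assigned to decides which codon position carries it. With every score moved 1 nucleotide downstream or upstream, first minus second in icSHAPE in vivo was -0.0433 or -0.0193.

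**Figure D1:**
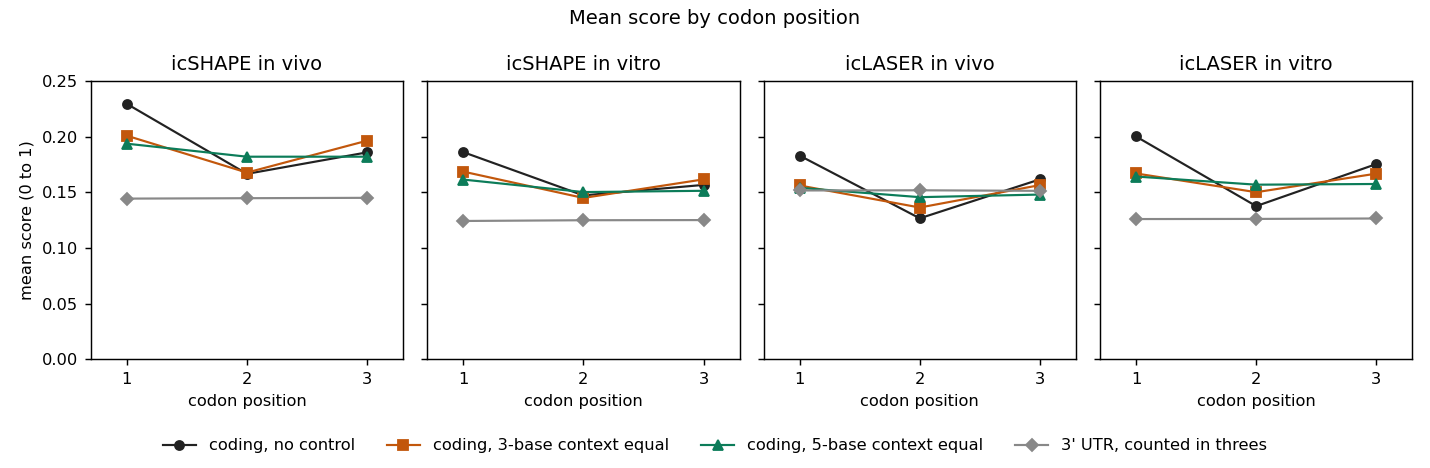
Mean score (vertical axis, 0 to 1) at codon positions 1, 2 and 3 for the 4 pooled profiles, without control, with the 3-base or 5-base context held equal (5-base contexts with at least 30 scored nucleotides at each position), and in 3′ UTRs counted in threes. The V shape of the uncontrolled coding means flattens as more context is held equal, and the 3′ UTR is flat.

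The pattern was seen both in how many nucleotides reacted and in how strongly. In icSHAPE in vivo, 17.7% of first positions scored at least 0.5, against 11.1% of the second and 13.2% of the third positions. A score of exactly 0 was given to 37.8%, 43.9% and 42.2% of them. Among nonzero scores the means were 0.369, 0.297 and 0.322, the same order. For icLASER in vivo the shares of at least 0.5 were 14.1%, 8.68% and 12.02%.

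The 3′ UTRs of the same genes, counted in threes from the stop codon, showed no such order. Their 3 means in icSHAPE in vivo were 0.144, 0.145 and 0.145, and the highest and lowest differed by 0.000701. The corresponding ranges were 0.000813 for icSHAPE in vitro, 0.000502 for icLASER in vivo and 0.000510 for icLASER in vitro. In 5′ UTRs, counted in the frame of the start codon, the ranges were 0.00563, 0.00335, 0.00405 and 0.00856, larger than in 3′ UTRs and far under those of the coding sequences. A periodic signal also appeared in the correlation of scores at a distance. In icLASER in vivo coding sequences, the correlation between scores 3 nucleotides apart was 0.146, above 0.0845 at 2 and 0.126 at 4 nucleotides, an excess of 0.0403 over the mean of these neighbours. The same excess was 0.0156 in the 3′ UTRs. For icSHAPE in vivo it was 0.0264 in coding sequences and 0.00425 in 3′ UTRs. After the mean of each 5-base context was taken away, the coding excess came to 0.00963 and 0.00540 for icLASER and icSHAPE in vivo, and to -0.00171 for icSHAPE in vitro. In icSHAPE in vitro the correlation at 3 nucleotides lay between those at 2 and 4 both before and after this step, and in icSHAPE in vivo after it, so an excess there is no peak.

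The bases themselves differ between codon positions. Guanine made up 32.9% of first positions, 18.4% of the second and 28.9% of the third positions, and adenine 26.8%, 32.4% and 19.7%. For icLASER, which targets purines, guanine had the highest mean, 0.281 in vivo over all positions, against 0.138 for adenine, 0.112 for uracil and 0.0838 for cytosine. Holding only the scored base equal brought the icLASER in vivo difference between first and second position from 0.0564 to 0.0350. For icSHAPE in vivo it went the other way, from 0.0629 to 0.0711. All 4 bases scored higher at the first than at the second position in both reagents in vivo. For icSHAPE in vivo, uracil averaged 0.3004 at the first and 0.176 at the second position, while cytosine, at 0.133 and 0.122, was highest at the third position, at 0.164.

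For icSHAPE the means spread more widely by the base that follows the scored one than by the scored base. Whether a score belongs to the nucleotide it is given to or to a neighbour could not be checked. In icSHAPE in vivo, coding nucleotides followed by adenine averaged 0.324 and those followed by uracil 0.283, whereas those followed by cytosine or guanine averaged 0.0911 and 0.0835. The same 4 means in icLASER in vivo were 0.240, 0.164, 0.0885 and 0.134. With the scored base and the next base both held equal, the icSHAPE in vivo means became 0.205, 0.171 and 0.203, so that the first and the third positions were nearly level and only the second was low. With the 3-base context centred on the scored base held equal, 61 of the 64 contexts could be used and the first minus second difference was 0.0331 for icSHAPE in vivo, 0.0237 for icSHAPE in vitro, 0.0198 for icLASER in vivo and 0.0168 for icLASER in vitro. The second position was the lowest of the 3 in 44, 46, 50 and 48 of these 61 contexts. The contrast of the third position against the mean of the others was positive at equal 3-base context in all 4 profiles, at 0.0121, 0.00487, 0.0102 and 0.00827, which for icSHAPE is the opposite sign to the uncontrolled one.

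The means were next split by 1 further base, a breakdown chosen after the values above were seen. Where the next base was an adenine and the one after it a pyrimidine, the mean icSHAPE in vivo score was 0.581 at the first codon position, 0.527 at the second and 0.520 at the third. Where the adenine was followed by a purine instead, the means were only 0.174, 0.148 and 0.181. The same split appeared after uracil, at 0.409 before a pyrimidine and 0.186 before a purine at first positions. After guanine it was 0.109 and 0.0537, and after cytosine it ran the other way, at 0.0866 and 0.101. It was also found outside coding sequence, where in 3′ UTRs a nucleotide ahead of adenine and a pyrimidine averaged 0.368 and one ahead of adenine and a purine 0.105. The first-position means in icLASER in vivo were 0.412 and 0.172, and those in 3′ UTRs 0.318 and 0.124. Adenine and then a pyrimidine followed 13.9% of first positions, 6.52% of the second and 11.8% of the third positions, the same order as the mean scores. For the third positions the following bases belong to the next codon.

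**Figure D2:**
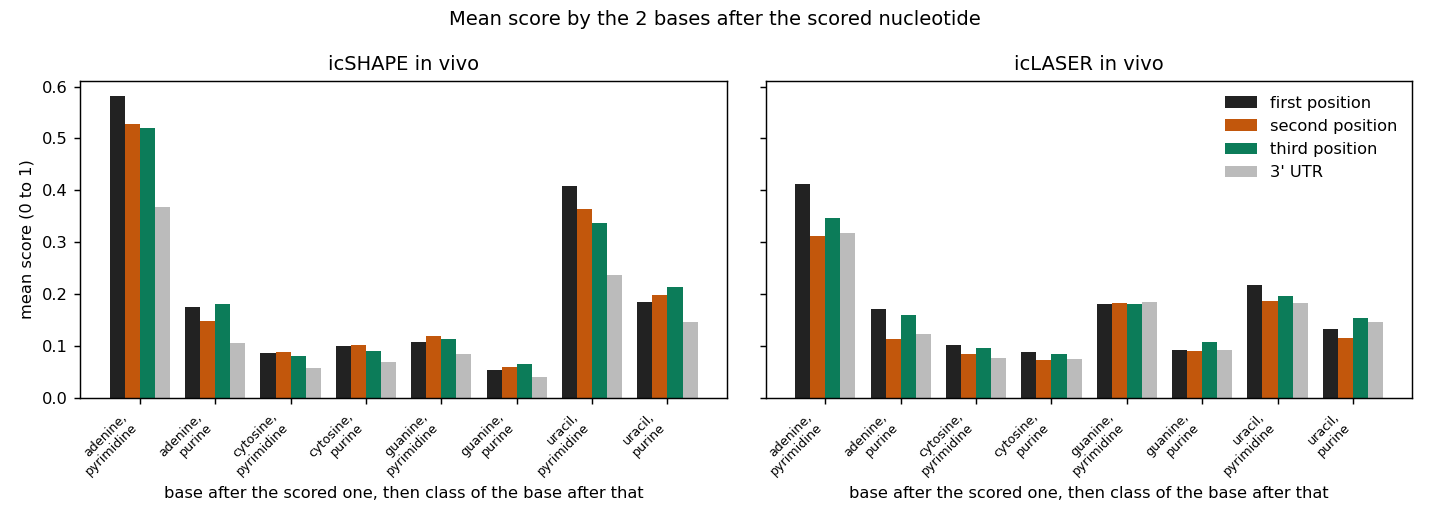
Mean in vivo score (vertical axis, 0 to 1) of nucleotides sorted by the base after them and by whether the base after that is a pyrimidine or a purine, for codon positions 1, 2 and 3 and for 3′ UTRs. Nucleotides ahead of adenine and a pyrimidine stand highest in all 4 places for both reagents.

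With 5 bases held equal the codon pattern was small. Over the 507 contexts with at least 200 scored nucleotides at every position, the icSHAPE in vivo means were 0.181, 0.169 and 0.1702. These contexts hold 66.4% of the nucleotides, for which the uncontrolled first minus second difference was 0.0512, against 0.0118 at equal context. The differences at equal 5-base context were 0.0110 for icSHAPE in vitro, 0.00759 for icLASER in vivo and 0.00709 for icLASER in vitro. A lower limit of 30 nucleotides, chosen after the first values were seen, kept 877 contexts and 89.4% of the nucleotides for icSHAPE in vivo, and gave 0.0117 there. The first position remained the highest in every profile at this width, and the second and the third positions were level, at 0.182 each, for icSHAPE in vivo. At this width the contrast of the third position against the mean of the others was negative in all 4 profiles. Bases farther away, amino acid order and structure itself were not held equal, and their part in the remaining difference was not tested.

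The same question was asked with contexts read outside coding sequence, again after the values above were seen. Each coding nucleotide was given the mean score of its 5-base context in the 3′ UTRs of the same genes, where no reading frame exists. The icLASER in vivo predicted means were 0.168, 0.120 and 0.153 against 0.183, 0.127 and 0.162 observed, and the predicted difference between first and second position, 0.0479, was 85.0% of the observed one. The share was 73.4% for icLASER in vitro, 53.4% for icSHAPE in vivo and 48.3% for icSHAPE in vitro. The predicted icSHAPE in vivo means, 0.145, 0.111 and 0.123, kept the order of the observed ones at a lower level. Those of icLASER in vitro did too, at 0.144, 0.0976 and 0.129 against 0.2002, 0.138 and 0.175 observed. Scores in 3′ UTRs were lower than coding scores in both icSHAPE profiles and in icLASER in vitro. The shares were not scaled to this level, so part of what they leave over may be a difference in level.

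Gene by gene the first position was nearly always above the second. Among genes with at least 300 scored coding nucleotides, the first position exceeded the second in 1349 of 1409 for icSHAPE in vivo, 995 of 1089 for icSHAPE in vitro, 1442 of 1515 for icLASER in vivo and 1451 of 1505 for icLASER in vitro. In 3′ UTRs of the same genes counted in threes, the share was 49.1%, 51.2%, 51% and 50.6%. The mean difference over genes was 0.0660 ± 0.0420 for icSHAPE in vivo (SD over 1409 genes) and 0.0591 ± 0.0375 for icLASER in vivo (SD over 1515 genes). In 3′ UTRs the icSHAPE in vivo difference was centred on 0, with a median of -0.000153 and an SD of 0.0208. The second position was the lowest of the 3 in 1038 genes for icSHAPE in vivo and in 1287 for icLASER in vivo. Genes with more guanine and cytosine at the third positions had larger differences in icSHAPE in vivo, with a Spearman correlation of 0.588 across 1409 genes. The same correlation was 0.114 across 1515 genes for icLASER in vivo. Genes share libraries and base composition, so these are descriptions.

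**Figure D3:**
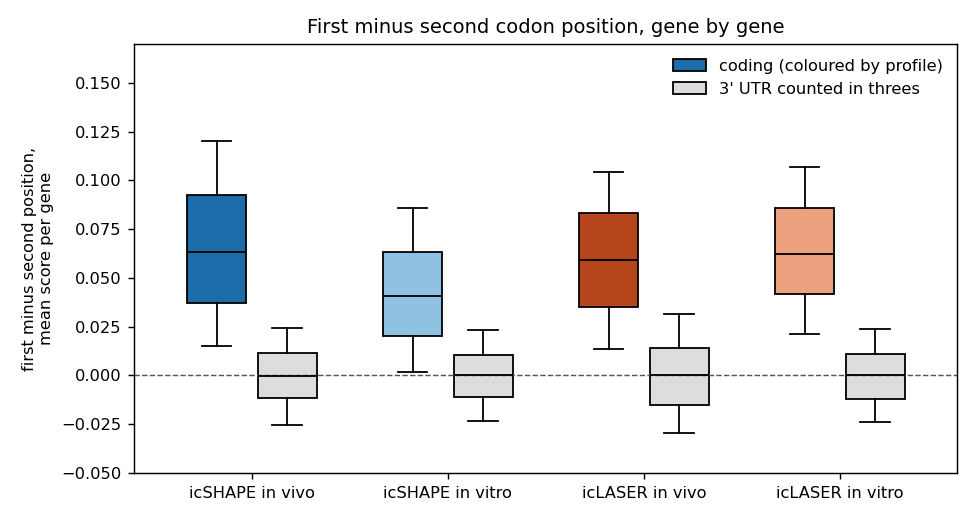
First minus second codon position in mean score per gene (vertical axis), for coding sequences and for 3′ UTRs counted in threes, in genes with at least 300 scored nucleotides. Boxes give the quartiles with the median and whiskers the 10th and 90th percentiles over genes, and the coding boxes lie above 0 while those of the 3′ UTRs are centred on it.

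Among the 10 genes of highest mean RPKM with enough scores, 9 had a first position above the second in icSHAPE in vivo. Among them were MT-CO2, MT-ATP6, RPL32, RPL19, RPL12 and RPS6, with DLK1, which encodes a transmembrane protein of the Notch ligand-like kind. DLK1 had the widest gap of these, 0.257 at the first, 0.0976 at the second and 0.130 at the third position. RPL34, a 60S ribosomal protein gene, was the exception at 0.206, 0.207 and 0.186. With icLASER in vivo the first position of RPL34 was above its second, at 0.277 and 0.239.

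Extremes of the position contrasts were read among the 572 genes with at least 600 coding nucleotides scored in every profile. The highest values of the third-position contrast in icSHAPE in vivo were those of GET4, 0.0905, SYNGR2, 0.0614, and SLC7A5, 0.0603. The lowest belonged to EIF4H, a partner of the initiation helicase, at -0.0888, with GAR1, a nucleolar ribonucleoprotein component rich in glycine and arginine, at -0.0822 and the RNA-binding protein gene SERBP1 at -0.0812. For icLASER in vivo GSTK1, at 0.0883, was among the highest, and the lowest were HNRNPA2B1, GAR1 and EIF4H, so that GAR1 and EIF4H were low for both reagents. SLC7A5, a large neutral amino acid transporter, had the widest first minus second gap in icSHAPE in vivo, at 0.342 and 0.130, with guanine or cytosine at 93.4% of the third positions in it. At the other end, SRSF7, a splicing factor with arginine and serine repeats, averaged 0.179 at the first, 0.264 at the second and 0.211 at the third position. GET4, which acts in the insertion of tail-anchored membrane proteins, was reversed for both reagents in vivo, at 0.155 and 0.209 in icSHAPE and 0.114 and 0.168 in icLASER. The splicing factor genes SRSF11 in icSHAPE and SRSF2 in icLASER, with CHTOP, an mRNA export gene, in icLASER, complete the 3 lowest of each reagent. The genes ordered by first minus second were chosen after their values were seen.

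The gene groups differed little in direction. Of 69 cytosolic ribosomal protein genes among the members, 48 had enough scores in each profile, and the first position was the higher in 47 of them in icSHAPE in vivo and in 48 in icLASER in vivo. Their median differences were 0.0728 and 0.0596, beside 0.0632 and 0.0592 over all members. All 7 glycolytic enzyme genes followed the order in both reagents in vivo, with medians of 0.102 for each. GAPDH, the glyceraldehyde phosphate dehydrogenase gene, averaged 0.253, 0.0960 and 0.155 in icSHAPE in vivo. All 13 measured chaperone genes followed it as well, with medians of 0.0862 in icSHAPE in vivo and 0.102 in icLASER in vivo. HSPA1A, the inducible Hsp70, stood at 0.245, 0.0754 and 0.175 in icSHAPE in vivo. Among translation factors the order held in all 32 measured in icSHAPE in vivo and in all 33 in icLASER in vivo. EEF1A1, the elongation factor that delivers aminoacyl-tRNA, averaged 0.189, 0.111 and 0.133 in icSHAPE in vivo. The 3 measured globin genes had the widest median in icSHAPE in vivo, 0.1699, with HBA1 at 0.283, 0.101 and 0.179, but HBA1 and HBA2 share nearly all their coding sequence and their reads may be split between them. All 11 measured DNA replication genes followed the order in icSHAPE in vivo, with a median of 0.0752, and PCNA, the sliding clamp, averaged 0.238, 0.153 and 0.1998. Over all members the share was 95.7% in icSHAPE in vivo and 95.2% in icLASER in vivo.

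Codons were grouped next by the amino acid they encode, in nuclear genes only, because the mitochondrial code differs. Of 682474 codons, 5 in-frame UGA codons were set aside. In icSHAPE in vivo the mean score over the 3 nucleotides of a codon was highest for asparagine, 0.369, tyrosine, 0.357, and aspartate, 0.326. It was lowest for tryptophan, 0.0912, proline, 0.113, and alanine, 0.114. The highest and lowest amino acid thus differed by 0.278. In icSHAPE in vitro tyrosine, 0.316, asparagine, 0.301, and isoleucine, 0.264, led, and the same 3 were lowest. In icLASER in vivo aspartate, 0.307, glutamate, 0.224, and valine, 0.214, led and phenylalanine, 0.112, threonine, 0.0869, and proline, 0.0812, were lowest. The in vitro icLASER profile named the same 6 amino acids in the same order, led by aspartate at 0.322. Codons for aspartate, glutamate and valine begin with guanine, the base with the highest icLASER mean. Those for glycine, at 0.173, and alanine, at 0.120 in icLASER in vivo, also begin with it. The part of the first base in this order was not tested.

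The reagents ordered the amino acids differently. Across the 20 amino acids, Pearson's correlation between the reagents was 0.334 in vivo and 0.216 in vitro, as a description of means over largely the same transcripts. After the mean of each nucleotide's 3-base context was taken away, the correlation in vivo was 0.863. Asparagine, aspartate and tyrosine stood highest after this step in icSHAPE in vivo, at 0.104, 0.0738 and 0.0605 above their context, and glutamate, methionine and lysine lowest, at -0.0573, -0.0566 and -0.0459. In icLASER in vivo aspartate, asparagine and tyrosine were again the highest, at 0.0821, 0.0351 and 0.0186, and glutamate was the lowest at -0.0503.

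Some pairs of amino acids differ only in the third base of their codons. Aspartate and glutamate both begin with guanine and adenine, and are told apart by a pyrimidine or a purine at the third position. The first base of aspartate codons averaged 0.582 in icSHAPE in vivo and that of glutamate codons 0.177. The icLASER in vivo values were 0.699 and 0.289. Asparagine and lysine form another such pair, with first-base means of 0.678 and 0.211 in icSHAPE in vivo, as do histidine and glutamine, with 0.3598 and 0.117. In each pair the amino acid with the pyrimidine had the higher first base, the arrangement also seen for all coding nucleotides and for 3′ UTRs. The SD over amino acids was 0.0856 without control in icSHAPE in vivo and 0.0427 at equal 3-base context, and in icLASER in vivo 0.0516 and 0.0266. The 3-base context of a second position is the codon itself, so part of this decrease is set by the method. With every score moved 1 nucleotide downstream or upstream, the SD at equal 3-base context in icSHAPE in vivo was 0.00906 or 0.0112. A 5-base context holds the whole codon at every position, but its mean is taken over all 3 codon positions. That step takes away part of any difference between amino acids, and how much was not tested. The SD at equal 5-base context in icSHAPE in vivo was 0.00494.

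By class, the aromatic amino acids averaged 0.284 and the acidic ones 0.246 in icSHAPE in vivo, above the basic at 0.188, the polar uncharged at 0.183 and the aliphatic and small nonpolar at 0.1698. Tryptophan, the lowest of all 20, belongs to the highest class. With icLASER in vivo the acidic class led at 0.258 and the basic class followed at 0.169.

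Single codons spanned a wider range than amino acids. In icSHAPE in vivo the highest of the 61 sense codons was AAU for asparagine, 0.406. It was followed by UAU for tyrosine, 0.379, by UUA for leucine, 0.370, by GUA for valine, 0.352, and by GAU for aspartate, 0.350. The lowest was GGG for glycine, 0.0797, with CCG for proline, 0.0821, and CGG for arginine, 0.0828, close to it, and the alanine codons GCC, 0.0867, and GCG, 0.0878, next. In icLASER in vivo GAU, 0.315, and GAC, 0.298, led, ahead of GUA, 0.272, GUC, 0.255, and the serine codon AGU, 0.234. The lowest there were ACC for threonine, 0.0660, UCC for serine, 0.0683, CCC, 0.0686, and CCU, 0.0747, for proline, and ACU for threonine, 0.0826. Synonymous codons differed by a median of 0.0806 between the highest and lowest codon of an amino acid in icSHAPE in vivo. The widest such range was 0.268, within leucine, close to the 0.278 between amino acids. The icLASER in vivo median was 0.0437 and the widest range was 0.166, within serine, whose codons lie in 2 unlike boxes.

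The 8 boxes of 4 synonymous codons, in which only the third base varies, allow the third base to be changed with the amino acid fixed. In icSHAPE in vivo the second position averaged 0.2504 ± 0.0771 where the third base was adenine and 0.216 ± 0.0683 where it was uracil, against 0.0718 ± 0.0173 for cytosine and 0.0650 ± 0.0100 for guanine (SD over 8 boxes). Both the adenine and the uracil codon exceeded both the cytosine and the guanine codon in 8 of 8 boxes, in vivo and in vitro. In icLASER this held in 2 of 8 boxes. There the third position itself depended most on its base, at 0.248 ± 0.0113 for guanine against 0.128, 0.104 and 0.0914 for adenine, uracil and cytosine in vivo, and guanine was the highest in 8 of 8 boxes. The first position of the next codon differed less with the third base, from 0.203 to 0.225 in icSHAPE in vivo.

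Coding sequences were next compared with the 3′ UTRs of the same genes, in genes with at least 100 scored nucleotides in each. The icSHAPE in vivo coding mean was 0.198 and the 3′ UTR mean 0.145, and the coding sequence was the higher in 1161 of 1271 genes. Over all matched coding transcripts the share was 88.2%. The icSHAPE in vitro means were 0.166 and 0.126, with the coding sequence higher in 837 of 985 genes and in 85% of all matched coding transcripts. For icLASER in vitro they were 0.175 and 0.127, with 1215 of 1368 genes and 87.4% of transcripts. For icLASER in vivo there was little difference, 0.155 and 0.151, and the coding sequence was higher in 673 of 1388 genes, beside 52.5% of all matched coding transcripts. The median gene difference there was -0.00226 with an SD of 0.0766. At equal 3-base context the coding excess was 0.0738 for icSHAPE in vivo, 0.0597 for icSHAPE in vitro and 0.0458 for icLASER in vitro, while for icLASER in vivo it was 0.00195. It was found in 64 of 64 contexts in each profile but icLASER in vivo, where it was found in 43. With equal weight for each gene the icLASER in vivo difference was -0.000661. Against 5′ UTRs the coding mean at equal context was lower by 0.0301 in icLASER in vitro, at 0.166 and 0.196, and differed by -0.00564 in icSHAPE in vivo, -0.00120 in icSHAPE in vitro and 0.00752 in icLASER in vivo. Without control these differences were -0.0211 in icLASER in vitro, 0.0232 in icSHAPE in vivo, 0.0211 in icSHAPE in vitro and 0.0127 in icLASER in vivo, so that both icSHAPE differences changed sign at equal context. Distance from the transcript ends moves with region, and its part in these differences was not tested.

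The comparison of living cells with refolded RNA asks how the cellular setting goes with the scores. Over coding nucleotides scored in both conditions, icSHAPE averaged 0.197 in vivo and 0.164 in vitro, a difference of 0.0330 over 1074719 nucleotides. The icLASER means were 0.160 and 0.173, a difference of -0.0135 over 1318469 nucleotides. In 3′ UTRs of the same genes both differences were positive, 0.0219 for icSHAPE and 0.0258 for icLASER, so icLASER differed in sign between the coding sequence and the 3′ UTR. In 5′ UTRs icLASER was lower in vivo by more, at 0.158 against 0.206. Gene by gene, the icSHAPE coding mean was higher in vivo in 905 of 1044 genes, beside 90% of all transcripts with at least 100 positions scored in both. The icLASER mean was higher in 567 of 1286 genes, beside 67% of all transcripts. The medians over genes were 0.0297 for icSHAPE and -0.00509 for icLASER, with SDs of 0.0325 and 0.0379.

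The sign of the icLASER difference depended on which genes were counted. With genes of mean RPKM of at least 20 only, it was 0.00412, and with each gene given equal weight it was -0.00388. In icSHAPE the difference at mean RPKM of at least 20 was 0.0195. Leaving out scores of exactly 0 turned both, to -0.0312 for icSHAPE and 0.0256 for icLASER. The shares of zeros differ between conditions, 46.7% in vivo and 62.5% in vitro of all scored positions in icSHAPE, and 54.8% and 50.4% in icLASER. Across genes the Spearman correlation of the difference with mean RPKM was -0.341 for icSHAPE over 1044 genes and 0.286 for icLASER over 1286 genes. Whether abundance or the share of zeros sets these differences was not tested.

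Without control the codon pattern was wider in cells for icSHAPE. At positions scored in both conditions the first position exceeded the second by 0.0649 in vivo and 0.0401 in vitro. For icLASER the values were 0.0577 and 0.0651. With 5 bases held equal the icSHAPE values were close, at 0.0117 in vivo and 0.0112 in vitro. These cover all nucleotides scored in each profile, in contexts with at least 30 at each codon position. The icSHAPE in vivo minus in vitro difference was 0.0464 at the first, 0.0216 at the second and 0.0309 at the third codon position, and at equal 3-base context 0.0357, 0.0244 and 0.0369. In 3′ UTRs it was 0.0219 at each of the 3 positions. For icLASER the differences at equal context were -0.0103, -0.0129 and -0.00941. The base after the scored one went with the icSHAPE difference, which was 0.0673 ahead of adenine and 0.0707 ahead of uracil, against 0.00288 ahead of guanine and -0.00651 ahead of cytosine. In icLASER it was the scored base, with -0.0466 at guanine, -0.0178 at adenine, 0.000636 at uracil and 0.0147 at cytosine.

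All 20 amino acids and all 61 codons had a higher icSHAPE mean in vivo than in vitro. In 3′ UTRs, read as triplets in any register, the share of the 61 triplets was 98.4%. The largest differences were those of aspartate, 0.0879, asparagine, 0.0717, and phenylalanine, 0.0555, and the smallest those of threonine, 0.00970, glutamine, 0.0160, and alanine, 0.0162. In icLASER 3 of 20 amino acids were higher in vivo, phenylalanine at 0.0142, histidine at 0.0122 and proline at 0.0116, and 17 of 61 codons. In 3′ UTRs 100% of the same triplets were higher in vivo, so the triplets differed in direction between regions. Glutamate, -0.0432, methionine, -0.0310, and valine, -0.0305, were the lowest in icLASER.

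In genes of at least 350 codons the mean score was highest near the start codon. In icLASER in vitro, codons 6 to 25 averaged 0.237, codons 51 to 100 averaged 0.206, and codons beyond 300 averaged 0.150. The icSHAPE in vivo means of the same stretches were 0.225, 0.214 and 0.184. The icSHAPE in vitro and icLASER in vivo means declined less, from 0.177 to 0.158 and from 0.171 to 0.146. The mean above the 3-base context showed the same course, from 0.0707 to -0.0204 in icLASER in vitro. The in vivo minus in vitro difference in icLASER was accordingly -0.0681 in codons 6 to 25 and -0.00416 beyond codon 300, while in icSHAPE it was 0.0518 in the first stretch, 0.0568 in the next and 0.0278 in the last. The first minus second difference was found at every distance. In icSHAPE in vivo it was 0.0682 at codons 6 to 25 and 0.0571 beyond codon 300. In icLASER in vivo it was 0.0453 and 0.0518 in these stretches, and highest at codons 26 to 50, at 0.0603. The last stretch mixes genes of different lengths.

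**Figure D4:**
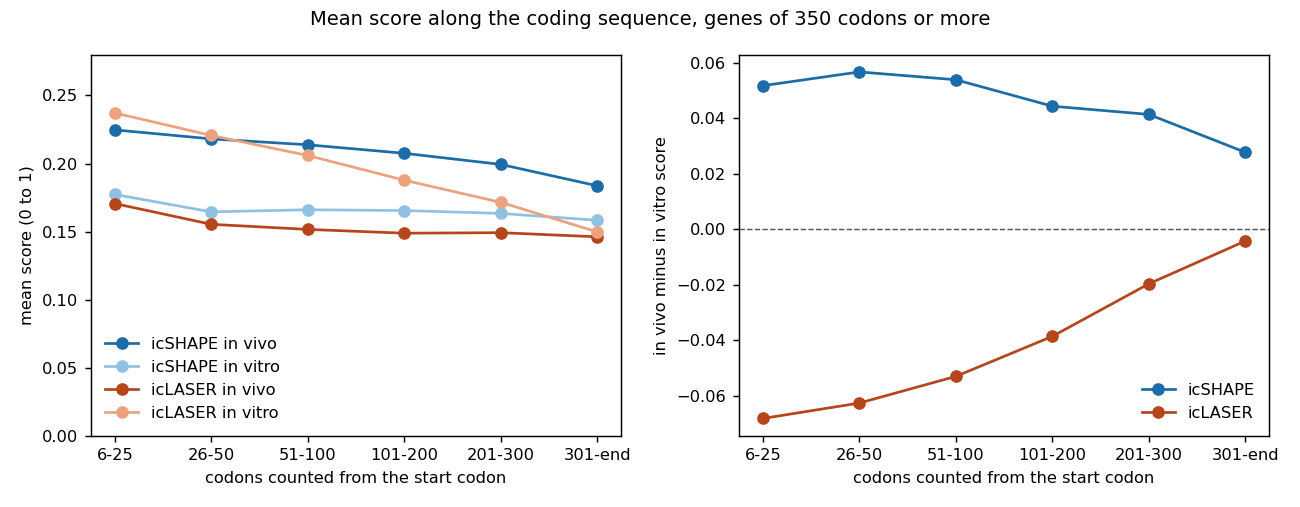
Mean score (left, 0 to 1 scale) and in vivo minus in vitro difference (right) in 6 stretches of codons counted from the start codon, in genes of at least 350 codons. The icLASER in vitro mean declines most steeply, and the icLASER difference goes from -0.0681 in the first stretch to -0.00416 in the last.

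Single genes spread widely around these means. Among the 572 genes with at least 600 coding nucleotides scored in every profile, the icSHAPE in vivo minus in vitro difference was among the highest for SYPL1, 0.131, and TMEM248, 0.120. The lowest were HDGF, -0.0571, HNRNPA3, -0.0476, and EIF3J, -0.0395. For icLASER the highest were NDUFV2, 0.104, RPS10-NUDT3, 0.0832, and EEF1A1, 0.0731. RPS10-NUDT3 is a readthrough gene that shares sequence with RPS10, so its reads cannot be assigned with certainty. EEF1A1 averaged 0.156 in vivo and 0.0826 in vitro. The lowest for icLASER were STXBP5, -0.149, G3BP2, -0.146, and JPT2, -0.134. All 3 were higher in vivo in icSHAPE, with 0.109, 0.0772 and 0.0533, as were 905 of 1044 genes over all members. G3BP2, a stress granule protein gene, averaged 0.0699 in vivo and 0.213 in vitro in icLASER.

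Over all members the coding mean was higher in vivo in 44.1% of genes in icLASER and in 86.7% in icSHAPE, which is the share to read the counts of gene groups against. In icLASER the coding mean was higher in vivo in 42 of 48 cytosolic ribosomal protein genes. Their median difference was 0.0296, beside -0.00509 over all members. RPL32 averaged 0.178 in vivo and 0.120 in vitro. In icSHAPE the same group had 28 of 48 higher in vivo and a median of 0.00683, beside 0.0297 over all members, and RPL32 was at 0.157 and 0.159. These genes are short and abundant, and both properties moved with the difference across all genes, with Spearman correlations of -0.307 for coding length and 0.286 for mean RPKM in icLASER. The group was not compared with others of the same length and abundance. Both measured mitochondrially encoded genes of the 4 members were higher in vivo in icLASER, MT-CO2 by 0.0309 and MT-ATP6 by 0.0320. Translation factors were near balance in icLASER, with 18 of 33 higher in vivo and a median of 0.00151, and had 23 of 28 higher in icSHAPE with a median of 0.0246. Of the DNA replication genes, 4 of 10 were higher in vivo in icLASER and 9 of 9 in icSHAPE, with medians of -0.00607 and 0.0428. Glycolytic enzyme genes had 4 of 7 and chaperone genes 8 of 13 higher in vivo in icLASER, with medians of 0.00135 and 0.000845, and 6 of 6 and 12 of 13 in icSHAPE. The 3 measured globin genes were higher in vivo with both reagents, with medians of 0.0337 in icSHAPE and 0.0136 in icLASER.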

How the data were processed

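The deposited profiles give the RPKM of each transcript and a score for each nucleotide that was scored, which measures enrichment of the reagent over its control. The authors aligned reads to the Ensembl GRCh38 transcriptome, computed the score with the icSHAPE pipeline without its last coverage filters, and pooled replicates with controls. The RPKM values deposited were used to choose transcripts, to name and filter genes and in correlations across genes, with a profile that lacks the transcript counted as 0. The submitters' processing notes name Trimmomatic and Bowtie2.

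From these, with Python 3.11.15, numpy 2.4.6 and matplotlib 3.10.9, transcripts were matched by identifier and length to GENCODE release 44 on GRCh38, and means were taken over scored nucleotides. Equal context means that the mean of each context was weighted by its count over all 3 positions, using contexts with at least 200 scored nucleotides at each. The 3-base control was run on simulated scores on the coding nucleotides of 1732 genes, where the largest error was 0.000989. Those scores were built from 3-base context effects with planted position effects. The run therefore checks the computation and cannot show whether 3 bases are enough for the real scores. No p-value was computed.

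Genes named were the 10 of highest mean RPKM, the 3 highest and 3 lowest of each contrast, and listed groups, from which paralogs of ribosomal proteins and kinases or binding partners of translation factors were left out. A few of these genes and 1 sequence are not reported here. The members and lists were chosen with earlier results of these data known. Alternatives covered the assignment of scores, transcripts, positions, weights, trimming, filters, zeros, contexts and scale.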

Additional observations from a re-analysis of the deposited data

Results flagged for a closer look

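The coding in vivo minus in vitro difference had opposite signs with the 2 reagents, 0.0330 for icSHAPE and -0.0135 for icLASER, in their single pooled profiles. The difference between the reagents was not tested, because no profile per replicate was used here. At a mean RPKM of at least 20 both were positive, 0.0195 and 0.00412, and without scores of exactly 0 both signs turned, to -0.0312 and 0.0256.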

How the results depend on the processing

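Values in fours are for icSHAPE in vivo, icSHAPE in vitro, icLASER in vivo and icLASER in vitro. Of 320 alternative values, 232 kept their sign and stayed within 1.5 times of the main value. Another 50 kept their sign but moved by over 1.5 times, and 38 changed sign. The share of scores of at least 0.5 and profiles divided by their own mean are on other scales, so only their sign was compared. No paired analysis was possible because the deposited profiles pool the replicates. For the same reason no replicate could be left out. With each score assigned 1 nucleotide downstream, which turns the codon positions by 1, first minus second was -0.0433, -0.0291, -0.0212 and -0.0243, and -0.00997, -0.00768, -0.00132 and -0.00246 at equal 3-base context. The third-position contrast was -0.0412, -0.0244, -0.0458 and -0.0504, and -0.00835, -0.00916, -0.00730 and -0.00843 at equal context, and the SD over amino acids was 0.00906, 0.0108, 0.00839 and 0.0104. With each score assigned 1 nucleotide upstream, which turns the codon positions by 1, first minus second was -0.0193, -0.00944, -0.0350 and -0.0378, and -0.0234, -0.0135, -0.0222 and -0.0216 at equal 3-base context. The third-position contrast was 0.0529, 0.0339, 0.0387 and 0.0432, and 0.0560, 0.0385, 0.0242 and 0.0222 at equal context, and the SD over amino acids was 0.0112, 0.0108, 0.0108 and 0.0127. With the scored base alone held equal, first minus second was 0.0711, 0.0486, 0.0350 and 0.0354 and the SD over amino acids 0.0786, 0.0608, 0.0436 and 0.0471, and the third-position contrast was -0.00952 and -0.00683 for icSHAPE in vivo and in vitro. With the next base also held equal, the third-position contrast was 0.00982 for icSHAPE in vitro and 0.0153 for icLASER in vitro. With 5 bases held equal, first minus second was 0.0118, 0.0110, 0.00759 and 0.00709, and the third-position contrast -0.00444, -0.00322, -0.000952 and -0.00194. The SD over amino acids, which holding the whole codon equal lowers in part by the method, was 0.00494, 0.00489, 0.00280 and 0.00268. With contexts of at least 30 nucleotides, added after the data were seen, first minus second was 0.0117, 0.0112, 0.00837 and 0.00733. The third-position contrast was then -0.00583, -0.00447, -0.00185 and -0.00303. Without scores of exactly 0, the coding minus 3′ UTR difference was 0.0850, 0.122, 0.0624 and 0.104, the third-position contrast of icSHAPE in vitro at equal context 0.00323, and the in vivo minus in vitro difference -0.0312 for icSHAPE and 0.0256 for icLASER. For icLASER in vivo the coding minus 3′ UTR difference was 0.0110 with every matched transcript, 0.00669 at positions scored in all 4 profiles, -0.000661 with equal gene weights, 0.00170 with 60 nucleotides left out at each end and 0.0143 at a mean RPKM of at least 20. The icLASER in vivo minus in vitro difference was -0.00660 with every matched transcript, -0.00388 with equal gene weights and 0.00412 at a mean RPKM of at least 20, where that of icSHAPE was 0.0195. The causes were not tested. Read depth is unknown, so the precision of single scores cannot be given.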
